A study of Mus musculus with 4 samples.

Results

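The regions described here were stretches of open chromatin that were called as peaks in hepatocytes of undamaged mouse liver (PHx 0 h) and in no library of a later time after partial hepatectomy (PHx), an operation in which a large piece of the liver is cut away and the remnant grows back. Merging touching or overlapping peaks of all 4 time points gave 200890 regions, and an autosomal region was kept when it held a 0 h peak and no peak of the 48, 72 or 96 h library. This left 8353 regions of 1 peak each, and 214 such regions on X and Y were left out. The members were chosen by the peak calls of the libraries, so their lack of a later peak is a description and not a result. Of the 117333 autosomal 0 h peaks, 8353 (7.12%) met the rule. The same rule applied to the other libraries gave 33797 regions at 48 h only, 36722 at 72 h only and 12 at 96 h only. These libraries had 155918, 161621 and 76182 autosomal peaks, so regions of 1 library made up a larger part at 48 and 72 h than at 0 h.

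The data were single-nucleus ATAC-Seq (scATAC-Seq) libraries of hepatocytes isolated with collagenase from the liver of C57BL/6J male mice on a normal diet, labelled as 10 to 12 weeks of age. The PHx 0 h library came from liver labelled as undamaged, and the libraries of PHx 48 h, PHx 72 h and PHx 96 h from liver after PHx. Each time point had 1 library, so time and library cannot be told apart and no difference between times has a replicate check. The libraries of 0 and 48 h were made from 1 hepatocyte preparation each, and how many animals gave the other libraries is not stated in the sources used here.

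In scATAC-Seq the Tn5 transposase cuts DNA that is free of nucleosomes, and a droplet barcode tells the nucleus of each fragment. Open sites outside promoters are often enhancers, where transcription factors bind, and in the adult liver many of them carry motifs of HNF4A, CEBP and FOXA proteins, which set hepatocyte identity. A peak caller finds a site only where enough fragments have been read, so the weakest sites of a deep library can be missed in a shallow one.

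Depth fell with each time point, with 136949314 counts in peaks at 0 h, then 62553202 (48 h), 25540258 (72 h) and 15809769 (96 h). Barcodes with at least 1000 counts, called nuclei here, numbered 3977 at 0 h with a median of 26005 counts. Of the 4645 deposited 0 h barcodes, 1066 were also found in another library, with a median of 65184 counts at 0 h against 15922 for the rest. The same kind of barcode had a median of 435 to 494 counts in the later libraries. The 877 such nuclei at 0 h held 48.5% of the counts in members and 49.3% of the counts in the other autosomal 0 h peaks.

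Sequences of members that the results below turn on are shown from the GRCm38 (mm10) genome, in the direction of the nearest gene. The first set is the 150 bases before the annotated start of 3 of the 5 genes of major urinary proteins (Mup) at which such bases met a member. Capitals mark the longest stretch that all 3 share, 30 bases with 14 exact copies in the genome, all of them in the Mup gene cluster. The windows are chr4:60070476-60070625, chr4:60662412-60662561 and chr4:61304001-61304150, all on the minus strand.
Mup7: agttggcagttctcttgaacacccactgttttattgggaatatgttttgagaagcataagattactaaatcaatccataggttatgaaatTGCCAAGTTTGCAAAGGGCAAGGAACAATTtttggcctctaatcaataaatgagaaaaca
Mup11: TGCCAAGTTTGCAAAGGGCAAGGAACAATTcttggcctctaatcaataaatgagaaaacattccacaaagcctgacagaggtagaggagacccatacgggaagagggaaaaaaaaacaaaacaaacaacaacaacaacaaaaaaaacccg
Mup14: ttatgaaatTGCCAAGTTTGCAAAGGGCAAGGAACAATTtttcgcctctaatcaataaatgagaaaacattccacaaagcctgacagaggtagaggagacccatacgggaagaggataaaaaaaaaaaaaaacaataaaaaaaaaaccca

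The second set is the central 150 bases of the 2 members with the most counts, of the member with the most counts near Stat5b, and of the member with the most counts among those with a CTCF match. Capitals mark an AP-1 match in the member in Ppp6r3 and a CTCF match in the one nearest to Trpc7. The windows are chr19:3534422-3534571, chr11:110172185-110172334, chr11:100808866-100809015 and chr13:57281595-57281744, all on the minus strand.
Ppp6r3: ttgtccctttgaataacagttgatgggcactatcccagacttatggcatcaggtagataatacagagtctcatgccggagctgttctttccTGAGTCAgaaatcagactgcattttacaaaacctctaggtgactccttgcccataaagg
Abca9: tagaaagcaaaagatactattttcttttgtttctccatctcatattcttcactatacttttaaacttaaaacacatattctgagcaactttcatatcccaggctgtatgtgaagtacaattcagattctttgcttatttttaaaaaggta
Stat5b: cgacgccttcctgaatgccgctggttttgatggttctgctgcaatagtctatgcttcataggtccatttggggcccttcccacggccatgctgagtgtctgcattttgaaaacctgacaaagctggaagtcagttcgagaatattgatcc
Trpc7: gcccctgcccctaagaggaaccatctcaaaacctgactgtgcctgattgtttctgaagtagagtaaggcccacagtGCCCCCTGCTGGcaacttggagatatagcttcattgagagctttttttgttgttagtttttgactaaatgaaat

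The members were short and weak. Their median length was 204 bp, with 25% under 73 bp and 25% over 349 bp, against a median of 786 bp for the 108980 other autosomal 0 h peaks. Of all members, 1645 (19.7%) were under 50 bp long and the longest spanned 4009 bp. The median member held 62 counts over all barcodes, where the other 0 h peaks had a median of 427 counts. In total the members held 636682 counts, and 353 of the 8353 held none. They covered 2.11 Mb, which was 1.39% of the length of autosomal 0 h peaks. Their counts were 0.470% of the autosomal counts in nuclei, with an exact Clopper-Pearson 95% interval of 0.469 to 0.472% that covers counting error only. Without the barcodes found in another library the share was 0.478%.

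Length alone did not separate the members, since their density was also low. The median density was 289 counts per kb of peak, with 25% of members under 245 and 25% over 331 counts per kb. The other 0 h peaks had a median of 503 counts per kb, and 5% of them lay under 257 counts per kb. When the 0 h peaks were ordered by density and divided into 10 sets of equal number, 28.3% of the set with the lowest density were members. This share was 16.7% in the next set, 12.9% and 7.84% in the 2 after it, and between 0.102% and 3.37% in each of the other 6. The 4 sets of lowest density held 7715 (92.4%) of all members. Regions called at 0 and 48 h but not later had a median 0 h density of 309 counts per kb, and regions called in all 4 libraries one of 734, so the members stood at the low end of an order that followed the number of libraries with a peak.

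**Figure D1:**
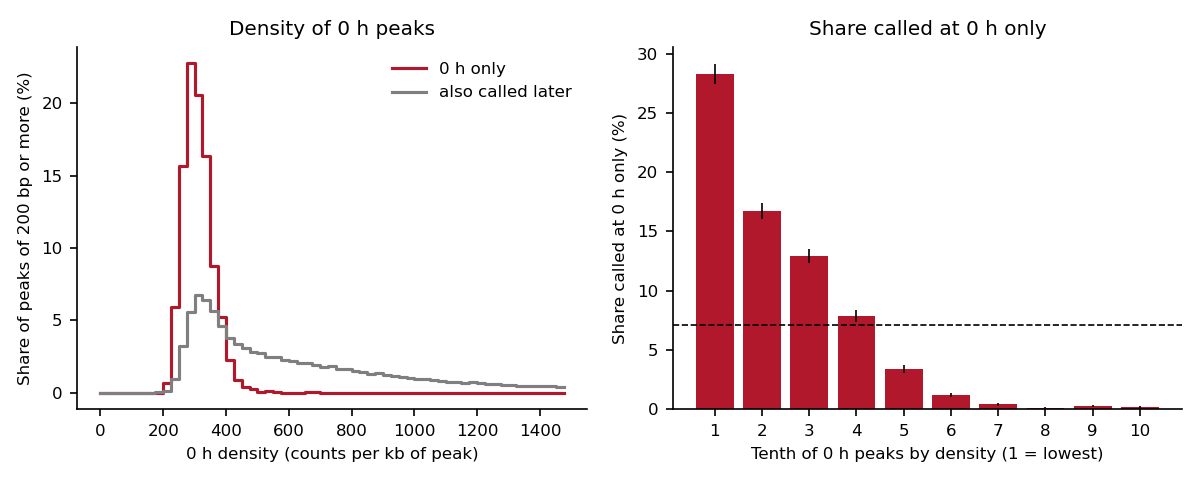
The left plot gives the distribution of the 0 h density (counts per kb of peak, in steps of 25) as a share of peaks of at least 200 bp, in red for regions called at 0 h only and in grey for 0 h peaks in regions with a later peak. The right plot gives the share of 0 h peaks called at 0 h only in each of 10 sets ordered by density, with exact 95% binomial intervals as bars and 7.12%, the share over all sets, as a dashed line. The share falls from 28.3% in the lowest set to 0.136% in the highest.

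Many members lay close to a region that a later library did call. The median gap to the nearest region with a later peak was 1194 bp, 5.77% of the gaps were at most 100 bp, 16.8% at most 500 bp and 86.0% at most 5000 bp. The members just inside the rule had a gap of 1 bp. Among them were a 3 bp peak without a count in Nek7 and a 67 bp peak with 19 counts in Rere. The regions just outside it were peaks of 1 bp without a count, in Ncoa2, Tram1 and Vwa3b, that a later peak covered. When a later peak had to cover at least 50% of a 0 h peak to count as shared, 13150 regions met the rule in place of 8353. When only 0 h peaks with at least the median count of 373 were used, 104 did.

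The density of the members was then set beside the peaks of each later library after scaling by total counts. A library's matrix holds counts in its own peaks only, so the later counts inside the members are not known, and the scaled value is what 0 h density would give at the later depth. Of the 4249 members of at least 200 bp, the median was 140 counts per kb at the depth of 48 h, where 5% of the 48 h peaks of that length had under 133. At the depth of 72 h it was 57.1 counts per kb, where 5% of the 72 h peaks had under 69.7. At the depth of 96 h it was 35.3 counts per kb, where 5% of the 96 h peaks had under 125. The members thus overlapped the weakest 48 h peaks, lay mostly under the 72 h peaks and lay wholly under nearly all 96 h peaks.

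Below this 5% limit lay 1568 (36.9%) of the 4249 members at 48 h, 3842 (90.4%) at 72 h and 4249 at 96 h. Among other 0 h peaks whose region did have a peak in the same later library, 7.52%, 24.3% and 75.7% lay below it. Above the 48 h limit were 96375 autosomal 0 h peaks of at least 200 bp, of which 2681 (2.78%) were members, and above the 72 h limit were 73211, of which 407 (0.556%) were members. With counts per peak in place of density and members of every length, 16.2%, 13.1% and 69.5% of the 8353 members were under the 5% limit at 48, 72 and 96 h. With density and members of every length these shares were 18.6%, 17.8% and 99.4%.

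**Figure D2:**
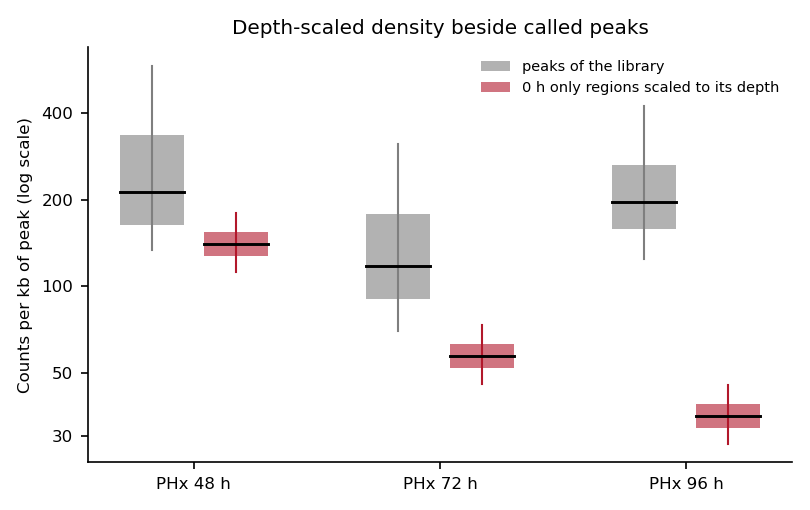
Density in counts per kb of peak, on a log scale, of the peaks of each later library (grey) and of the 4249 regions of at least 200 bp called at 0 h only, scaled to the depth of that library (red). Boxes span the middle 50%, thin lines run from the lowest 5% to the highest 5%, and black lines are medians. The scaled medians are 140, 57.1 and 35.3 counts per kb, against 212, 117 and 196 for the called peaks.

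Of the 4249 members of at least 200 bp, 89 (2.09%) had a density above 421 counts per kb, which at the depth of 48 h equals the median of 192 counts per kb over all autosomal 48 h peaks. Against the median of 212 counts per kb over 48 h peaks of at least 200 bp, 99.4% of these members lay below it. In the set of 89, 12 lay in the Mup cluster on chromosome 4, 11 on chromosome 19 and 9 on chromosome 11. For comparison, 31 of the 4249 members of at least 200 bp lay in the Mup cluster. Of all 8353 members, 498 lay on chromosome 19 and 649 on chromosome 11. Outside the Mup cluster, the densest was an exonic 624 bp region at chr8:126812462-126813085 with 663 counts per kb and counts in 212 nuclei, 132755 bp from the start of Tomm20, which encodes a subunit of the mitochondrial import receptor. Next came a 569 bp region 24050 bp from a start of Lepr, the leptin receptor gene, with 562 counts per kb in 169 nuclei. An intronic 1048 bp region in Spp2, which encodes a secreted phosphoprotein made in the liver, had 492 counts per kb in 241 nuclei. These members were chosen after their values were seen.

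The member with the most counts was the 4009 bp region chr19:3532493-3536501 in an intron of Ppp6r3, which encodes a regulatory subunit of protein phosphatase 6. It held 1381 counts in 570 of the 3977 nuclei, at 344 counts per kb. The second, chr11:110171157-110173362, lay between genes 2961 bp from a start of Abca9, a transporter of the ATP-binding cassette family. It held 1229 counts in 502 nuclei at 557 counts per kb, the highest density among the 10 members with the most counts. The third lay in an intron of Arrdc4, which encodes an arrestin domain protein, with 1091 counts in 426 nuclei over 3591 bp. A 2849 bp region in an exon, 48359 bp from Zfp619, held 1069 counts in 462 nuclei. A 2880 bp region in Hykk, nearest to the proteasome subunit gene Psma4, held 977 counts in 417 nuclei.

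The remaining 5 of these 10 had 725 to 822 counts. They lay in an intron of Fnip2 (822 counts), in an exon of Pdcd4 (756), at Mup11 (752), in an intron of Mettl7a1 (731) and in an intron of Eci2 (725). Eci2 encodes an enzyme of fatty acid oxidation, and Pdcd4 a factor that restrains translation. The 10 regions were long, from 1708 to 4009 bp, and apart from those at Abca9 and Mup11 their densities were 273 to 377 counts per kb, where the middle 50% of members had 245 to 331. Their high counts thus stood beside high length.

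The counts of the members came from many nuclei. Of the 3977 nuclei, 3976 had a count in at least 1 member, with a median of 123 counts per nucleus, and the 10 nuclei with the most gave 1.58% of the counts in members against 1.62% of those in other autosomal peaks. The median member had a count in 49 nuclei (1.23% of 3977), with 5% of members in at most 1 nucleus and 5% in at least 119. The other 0 h peaks had a median of 214 nuclei. Without the barcodes found in another library the median member had a count in 25 of 3100 nuclei. In 56.7% of the nucleus and member pairs with a count the value was 1, and in 38.3% it was 2, which is 1 fragment with 1 or both ends inside the region. The largest value was 18 counts of 1 member in 1 nucleus.

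The number of nuclei was set beside the number expected if the fragments of a member fell on nuclei in proportion to their depth. With each value read as 1 fragment per 2 counts, rounded up, the median ratio of observed to expected nuclei over the 8000 members with a count was 0.994, with 90% of members between 0.926 and 1.01. With counts divided by 2 in its place the median ratio was 1.56, since a fragment with 1 end in a short region then counts as less than 1 fragment. With few fragments the expected number is close to the number of fragments. A ratio near 1 there cannot tell members spread over all nuclei from members in a part of them. With rounded-up fragments, members with 21 to 50 fragments had a median ratio of 1.01, as did other 0 h peaks of that range. For the 114 members with 201 to 1000 fragments the median ratio was 0.933, and for the 42929 other 0 h peaks of that range it was 0.955. Among members with at least the median count, the 5 with the fewest nuclei against the number expected from counts divided by 2 were near Arrdc4 (426 nuclei), Carmil1 (294), Tbk1 (251), Lrrc28 (275) and Cyp3a59 (277). For the Arrdc4 region 504 nuclei were expected from its 571 rounded-up fragments. With rounded-up fragments the order changed, and a 405 bp region nearest to Phyh, with 109 counts in 57 nuclei where 68.9 were expected, lay below these 5. None of the 5 was a region of few nuclei.

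The 20% of nuclei with the most counts gave 48.3% of the counts in members and 49.3% of those in other autosomal peaks. The share of a nucleus's counts that fell in members was 0.461% in these nuclei and rose over the sets of lower depth to 0.529% (95% interval 0.517 to 0.541%) in the 20% with the fewest counts. Clusters 4 and 5 described next had low median depths too, so depth and cluster were not separated in this order.

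Clustering of the 0 h nuclei on peaks other than the members gave 6 clusters. Clusters 0 to 3, with 3681 nuclei (92.6%), kept the level of the 10 hepatocyte markers and were called hepatocyte-like. In cluster 4 (207 nuclei, led by Ehd3, Gm13889 and Hlx) all 10 hepatocyte markers were at least 2-fold lower and 9 of 11 measured endothelial markers at least 2-fold higher than in the other nuclei. In cluster 5 (89 nuclei, led by Clec1b, Hspa1a and Lrrc25) 9 of 10 hepatocyte markers were at least 2-fold lower and 3 of 4 measured myeloid and 3 of 5 measured stellate markers at least 2-fold higher. Both had a median depth under that of the library, at 2681 and 8131 counts, and no listed marker among their 10 leading genes, so they were given no cell type name.

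Hepatocyte-like nuclei gave 98.4% of the counts in members and 98.7% of those in other autosomal peaks. Members took 0.469% of the autosomal counts there, 0.527% in cluster 4 (95% interval 0.505 to 0.549%) and 0.670% in cluster 5 (0.646 to 0.694%). Within the hepatocyte-like nuclei the share ran from 0.404% in cluster 3 to 0.503% in cluster 0. Of the 6110 members with at least 20 counts in cluster 4 and the hepatocyte-like nuclei together, 493 (8.07%) were at least 2-fold higher in cluster 4, against 12.2% of all 111810 autosomal 0 h peaks tested the same way. For cluster 5 these were 677 of 6122 members (11.1%) against 13.1% of all peaks. A call could rest on 2 counts, and 426 of the 493 and 603 of the 677 had under 10 counts in the small cluster. The 1 count added to the smaller class lowers the fold most where counts are few. Members had a median of 62 counts against 427 for the other 0 h peaks, so these shares do not compare peaks of like counts.

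The members highest by fold in the small clusters had part of their counts in hepatocyte-like nuclei too. A 263 bp region 6 bp from a start of Ifi204, an interferon-induced gene, had 37 counts in the 89 nuclei of cluster 5, 20 in cluster 4 and 31 in the 3681 hepatocyte-like nuclei. A 232 bp region nearest to Trim25, which encodes a ubiquitin ligase of antiviral signalling, had 29 counts in cluster 5 and 29 in hepatocyte-like nuclei. In cluster 4, a 365 bp region in an intron of Masp1, a protease gene of the complement system, had 40 counts against 57 in hepatocyte-like nuclei. A 395 bp region at a start of Pcdh12, which encodes a protocadherin of vascular endothelium, had 30 counts against 81. Over all members, 68 had at least 10 counts in cluster 4 and 75 in cluster 5, a limit that moves with the depth of these clusters.

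**Figure D3:**
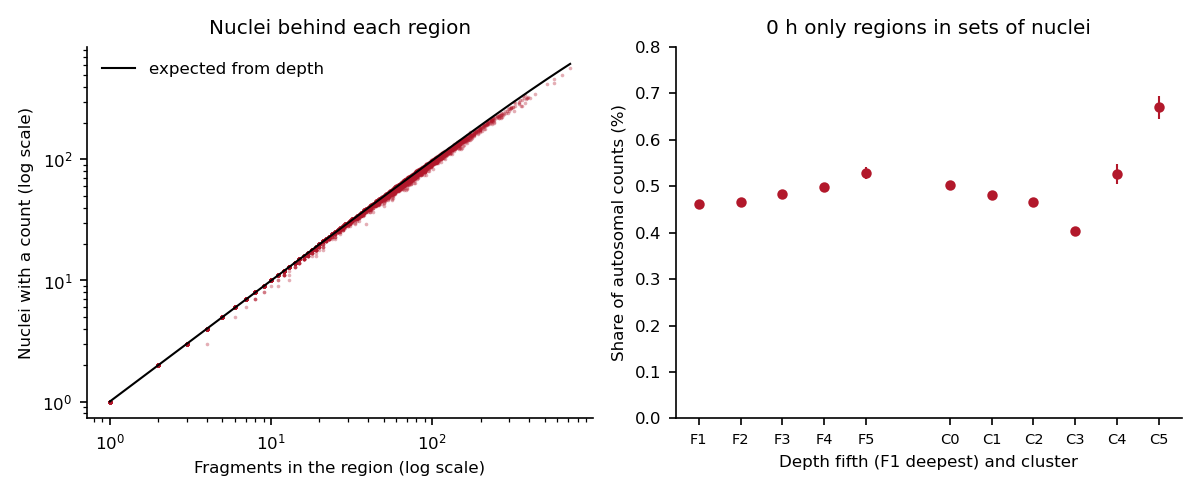
The left plot gives, for each region called at 0 h only, the number of nuclei with a count against the number of fragments, both on log scales, and the line gives the number expected when fragments fall on nuclei in proportion to depth. The right plot gives the share of autosomal counts in these regions in 5 sets of nuclei from the deepest (F1) to the shallowest (F5) and in the 6 clusters (C0 to C5), with exact 95% binomial intervals. The regions follow the line up to 570 nuclei, though at few fragments the line is close to the number of fragments itself. The shares run from 0.404% in C3 to 0.670% in C5.

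By the GENCODE vM21 gene models, 698 members (8.36%, 95% interval 7.77 to 8.97%) lay within 1000 bp of a transcription start site (TSS), against 21.8% of the other 0 h peaks. A further 63.5% lay in introns, 6.99% in exons and 21.2% between genes, where the other peaks had 45.0%, 4.64% and 28.5%. The median distance to a protein-coding TSS was 12026 bp for members and 11616 bp for the others. Among peaks of at least 200 bp with 250 to 330 counts per kb, 2688 of 19812 were members (13.6%). In this range of like density the shares within 1000 bp of a TSS were 9.38% for members and 13.4% for the others, and the shares in introns 63.9% and 57.9%. Members were thus mostly intronic and seldom at promoters, and part of this difference from the other peaks went with their low density.

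The members were spread over 4133 nearest protein-coding genes, of which 2509 had exactly 1. The 73 genes with at least 10 members had a median length of 188653 bp, against 22501 bp for all 16930 genes that were nearest to a 0 h peak. Vwa8, which encodes a mitochondrial ATPase domain protein, had the most, with 26 of its 90 0 h peaks. Sox5, a transcription factor gene, had 24 of 128, Lpp, which encodes a focal adhesion protein, 23 of 98, and Tcf7l2, the transcription factor gene of Wnt signalling, 22 of 70. Each of Nr3c2 (the mineralocorticoid receptor), Thrb (a thyroid hormone receptor), Ptprk, Ralgapa2 and Taok3 had 21, and 4 genes tied with 20 (Gfra1, Nfib, Ptprd and Sash1). In Taok3, a kinase gene of 155091 bp, the 21 members were 43.8% of 48 peaks, and in the others named with over 20 members they were 18.8% to 31.4%.

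At 486 members the start of a protein-coding gene was within 1000 bp. Of the 10 with the most counts, 4 were at Mup genes, described below with their cluster. The others were at Fam208a, which encodes a subunit of a silencing complex (581 counts, 272 nuclei), at Gm20547 and C2, which overlap (549 counts, 266 nuclei), and at Myo18a, a myosin gene (498 counts, 236 nuclei). Further ones were at Nbr1, an autophagy receptor gene (476 counts, 244 nuclei), at Ackr4 in Acad11 (458 counts, 230 nuclei) and at Gcat, a gene of threonine breakdown (422 counts, 196 nuclei). Their densities of 247 to 494 counts per kb were below the 503 counts per kb of the median of other 0 h peaks.

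The Mup gene cluster on chromosome 4 held a large group of members. Mup proteins are small secreted carriers of pheromones that the liver makes in large amounts in males, under the control of growth hormone and STAT5. Between the first and the last of 22 protein-coding Mup genes (chr4:59956804-62150863), 46 of 105 0 h peaks were members (43.8%, 95% interval 34.1 to 53.8%), against 7.12% of all autosomal 0 h peaks. The Mup group was chosen after its values were seen. Shares of this size were also found elsewhere. By nearest gene, 8 of 10 peaks of Vwce, 9 of 13 of Dsc2 and 13 of 20 of Abca9 were members. The median densities of those members were 286, 274 and 296 counts per kb. The Mup members had a median density of 375 counts per kb, above the 289 of all members and below the 503 of the other 0 h peaks. Above 330 counts per kb and at 200 bp or more, 26 of 77 peaks in the cluster were members (33.8%), where 1.51% of all 84667 autosomal 0 h peaks of that kind were.

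By counts, the 4 largest of them lay at gene starts. The member at the start of Mup7, chr4:60070114-60071419, held 712 counts in 341 nuclei at 548 counts per kb, and all 712 counts were in hepatocyte-like nuclei. The member at the start of Mup11, chr4:60662269-60663397, held 446 counts in 227 nuclei, and one 444 bp from another annotated start of Mup11 held 752 counts in 321 nuclei. The member 367 bp from a start of Mup16 held 561 counts in 299 nuclei. A member between genes, chr4:61434876-61435465 beside Mup15, had 401 counts in 208 nuclei over 590 bp, or 680 counts per kb, the highest density among Mup members of at least 200 bp. The nearest region with a later peak was 3539 bp away from the Mup7 member, 5196 bp from the Mup11 start and 5377 bp from the Mup16 member. In the first set of sequences above, Mup11 and Mup14 had 127 identical of 135 aligned bases (94.1%) and Mup7 and Mup14 68 of 69 (98.6%).

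Members of the Mup cluster were seen in hepatocyte-like nuclei more than in the rest. Scaled to a common total of autosomal counts (CPM), they took 60.9 CPM there (95% Poisson interval 59.0 to 62.8), 16.3 in cluster 4 (6.57 to 33.7) and 11.3 in cluster 5 (3.67 to 26.4). Reads of near-identical copies can be split or dropped by the aligner, so the counts of single Mup genes are uncertain. Of all 50-base words in the Mup members, 59.8% occurred again within the cluster, against 19.4% in the 0 h peaks of the cluster that also had a later peak, and the part of these copies in the result was not tested.

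The later libraries had fewer Mup peaks. The number of peaks in the cluster was 105, 78, 52 and 31 at 0, 48, 72 and 96 h, over 113577, 68110, 36708 and 14104 bp. Over all autosomes the libraries had 117333, 155918, 161621 and 76182 peaks, so the total rose at 48 and 72 h and was lowest at 96 h. In regions of the cluster with a peak in all 4 libraries, the level was 434, 275, 163 and 170 CPM over 60785, 45026, 30331 and 14104 bp, which is 7.14, 6.12, 5.37 and 12.0 CPM per kb of peak. The level per kb was thus lower at 48 and 72 h than at 0 h and higher at 96 h, where the called length was shortest. Since peaks were called in each library on its own, these values move with the length that was called.

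Other genes of growth hormone signalling and of sex-biased liver function also held members. Of the 232 0 h peaks nearest to the 15 genes of this list, 33 were members (14.2%, 95% interval 10.0 to 19.4%), against 7.12% of all. Stat5b, the transcription factor gene activated by growth hormone, had 10 of 18, Ghr, the growth hormone receptor gene, 6 of 53, and Bcl6, a repressor gene of the same targets, 4 of 29. Without Stat5b the list had 23 of 214 (10.7%), still with 3 of 16 at Mup20. No interval was taken for this smaller share, so its difference from 7.12% was not set beside counting error. The largest Stat5b member, in an intron at chr11:100808262-100809619, held 471 counts in 229 nuclei at 347 counts per kb. A member 27375 bp from Elovl3, a male-biased gene of fatty acid elongation, held 278 counts in 153 nuclei. The list's member density had a median of 290 counts per kb, as for all members, and 3 of its members were also counted with the Mup genes.

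Among the clock genes, 16 of 146 peaks were members (10.96%, 95% interval 6.40 to 17.2%), an interval that holds the 7.12% of all peaks. Over all peaks within 100 kb of a clock gene's TSS the share was 7.14%. Nr1d2, a repressor gene of the clock, had 4 of 14, with 324 counts in 176 nuclei in an intron and 301 counts in 157 nuclei at 258 bp from its start. Hlf had 3 of 15, and Tef, Per1 and Clock 2 each. Genes of plasma proteins had 7 of 72 (9.72%), 6 of them near Apob, which encodes the core protein of very low density lipoprotein. Genes of lipid metabolism had 10 of 158 (6.33%), with 3 of 7 at Mlxipl, the gene of a factor that responds to glucose, where the largest held 438 counts in 200 nuclei.

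Hepatocyte transcription factor genes had 14 of 275 (5.09%), with 5 of 31 at Prox1 and none among the 3 peaks nearest to Hnf4a, the 7 of Cebpa, the 11 of Foxa1 and the 45 of Foxa2. Genes of the pericentral zone had 6 of 159 (3.77%), 4 of them at Slc1a2, and genes of the periportal zone 6 of 172 (3.49%), 1 each at Cps1, Cyp2f2, Hsd17b13, Sox9, Igf1 and Ctsc. Developmental factor genes of other lineages had 4 of 165 (2.42%).

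Marker genes of other liver cells had members as well, and their shares stand beside the 7.12% of all autosomal 0 h peaks. The share was 1.72% for endothelial markers (2 of 116, 95% interval 0.210 to 6.09%) and 2.11% for cholangiocyte markers (3 of 142, 0.438 to 6.05%). For myeloid (1 of 28, 3.57%), stellate (2 of 54, 3.70%), lymphocyte (2 of 23, 8.70%) and hepatocyte markers (8 of 75, 10.7%) the interval held 7.12%. The single myeloid member, 10025 bp from Lyz2, had 82 of its 85 counts in hepatocyte-like nuclei and 3 in cluster 5. The member in an intron of Lyve1, an endothelial gene, had 109 of 121 counts in hepatocyte-like nuclei, 7 in cluster 4 and 5 in cluster 5, which are larger parts than the 0.711% and 0.933% of all member counts in those clusters.

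**Figure D4:**
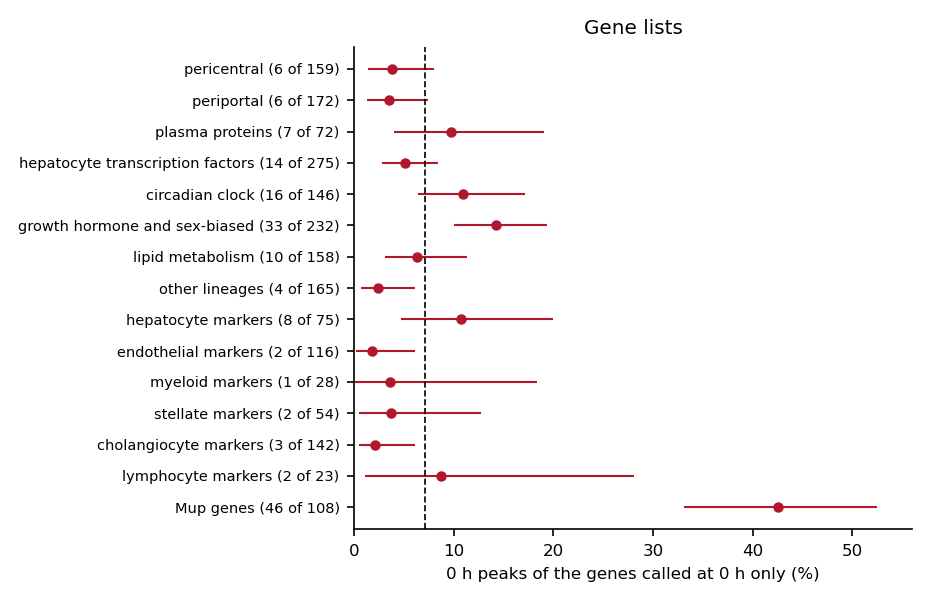
Share of the 0 h peaks nearest to the genes of each list that were called at 0 h only, with exact 95% binomial intervals as bars and the share over all autosomal 0 h peaks, 7.12%, as a dashed line. The numbers in brackets are members of peaks, and the Mup genes were chosen after their values were seen. The Mup genes stand at 42.6% by nearest gene and the growth hormone list at 14.2%.

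The share of 0 h peaks that were members differed between chromosomes. It was 13.9% on chromosome 19 (498 of 3581, 95% interval 12.8 to 15.1%), 9.51% on chromosome 16 and 8.96% on chromosome 11, and lowest on chromosomes 1 (4.97%) and 2 (4.98%). Among peaks of at least 200 bp with 250 to 330 counts per kb, 33.5% were members on chromosome 19, 22.9% on chromosome 11 and 7.79% on chromosome 1, so the difference was larger at like density.

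The counts of regions called in all 4 libraries moved in the same way on these chromosomes. Chromosome 19 took 2.99% of such counts at 0 h and 2.29%, 2.55% and 2.48% at 48, 72 and 96 h, which is 0.768, 0.855 and 0.829 of its 0 h share. Chromosome 11 stood at 0.910, 0.894 and 0.855 of its 0 h share, and chromosome 1 at 1.09, 1.11 and 1.14. Chromosome 16, which was second in members, stood at 0.964, 0.965 and 0.986. The shift of chromosome 19 was seen across nuclei, with a median share per nucleus of 2.95% at 0 h and 2.14%, 2.45% and 2.43% later, although the middle 90% of nuclei overlapped (1.91 to 3.81% at 0 h and 1.13 to 3.73% at 48 h). Its part in the number of members was not tested.

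**Figure D5:**
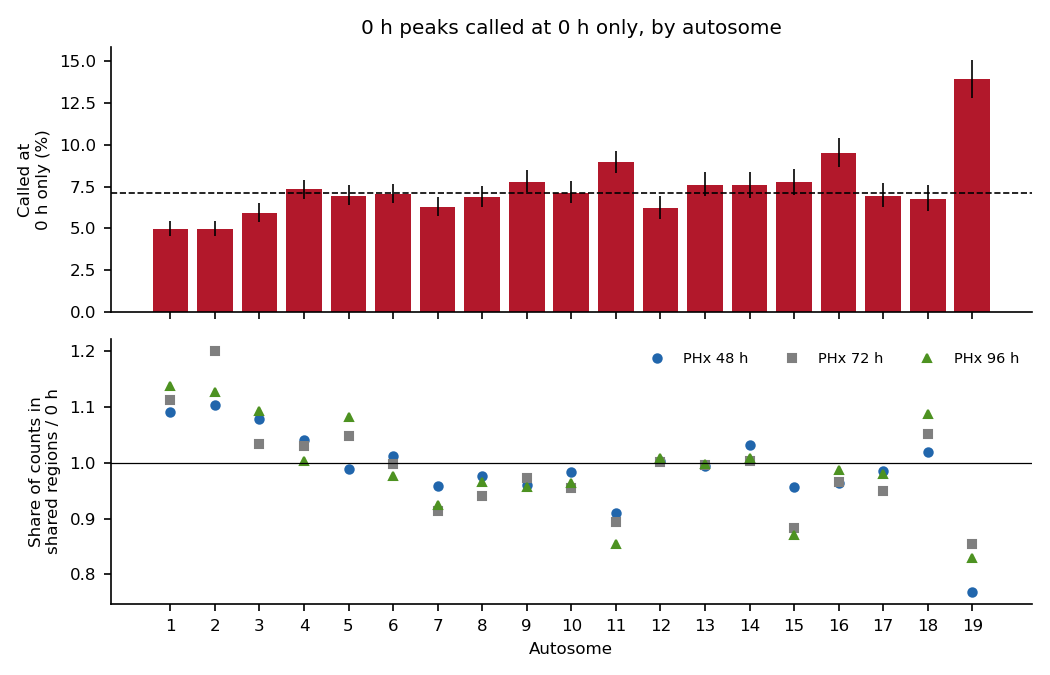
The upper plot gives the share of 0 h peaks called at 0 h only on each autosome, with exact 95% binomial intervals and 7.12% as a dashed line. The lower plot gives, for regions with a peak in all 4 libraries, the share of a library's counts on each autosome divided by its share at 0 h. Chromosome 19 has the highest share of regions called at 0 h only, 13.9%, and the lowest ratio at 48 h, 0.768.

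Regions called in all 4 libraries near the members were lower at later times than such regions in general. Of the members, 4546 (54.4%) lay within 5000 bp of a region of that kind, which gave 3959 neighbours with at least 1 CPM at 0 h. Their median log2 ratio to 0 h was -0.17, -0.24 and -0.36 at 48, 72 and 96 h, where all 61590 such regions had 0.11, 0.17 and 0.08. At 48 h 65.2% of the neighbours and 40.3% of all were below 0. The neighbours covered a median of 2039 bp at 0 h against 1185 bp for all, and their called length shrank more, with a median log2 ratio of length of -1.26 against -0.87 at 96 h. Where the called length at 48 h was within 0.2 of that at 0 h on the log2 scale, the median ratios were -0.14 for 2253 neighbours and 0.01 for 34576 regions of all. With the same limit on length they were 0.13 and 0.35 at 72 h, for 1088 and 25473 regions, and 0.77 and 1.36 at 96 h, for 34 and 2595, so that the neighbours were above 0 at these times but stayed under the regions in general. This is the same contrast as the rule, so it is a description of the surroundings of the members.

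Base content was read in the central 200 bp. This window stays inside the 4249 members of at least 200 bp and passes the ends of the others. In it the members had a mean GC content of 46.3% (SD 6.55 over regions), against 48.9% (SD 8.84) for the other 0 h peaks. They held 1.98 CpG on average against 3.85, and 21.6% of their bases were soft-masked as repeats against 16.0%. Among peaks of at least 200 bp with 250 to 330 counts per kb, these were 46.9% against 48.1%, 2.06 against 2.68 CpG, and 20.7% against 18.4%. The members were therefore poorer in CpG and richer in repeats than other weak peaks of that range, by less than the spread between regions for GC.

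Motif matches in the same windows, counted on both strands, differed most for CTCF, a protein that bounds chromatin loops. A CTCF match was found in 35 members (0.419%, 95% interval 0.292 to 0.582%) and in 4.07% of the other 0 h peaks, and at like density in 0.335% and 1.32%. The member with the most counts among these lay far from a gene start, at chr13:57281442-57281897 nearest to Trpc7. ETS matches (CCGGAAG), frequent at promoters, were in 0.850% of members and 1.66% of the others, but at like density in 0.967% and 0.969%.

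Over all peaks, the 4 motifs of hepatocyte factors had somewhat lower shares in members than in the other peaks. For all but HNF1 the difference was within counting error. FOXA (TGTTTAC) was in 3.88% of members and 4.13% of the others, and at like density in 3.31% and 3.92%. HNF1 (GTTAATNAT) was in 0.766% and 0.995%, and at like density in 0.521% and 0.672%. HNF4A (CAAAGTCCA) was in 0.766% and 0.949%, and at like density in 0.707% and 0.718%. CEBP (TTGCNNAA) was in 9.41% and 9.37% at like density. At 1000 bp or more from a TSS, where density was not matched, all 4 were lower in members. CEBP was in 10.7% against 12.1%, FOXA in 3.95% against 4.56%, HNF4A in 0.771% against 1.07% and HNF1 in 0.836% against 1.11%. No interval was taken for these shares or for those at like density, so they were not set beside counting error.

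For some other motifs the direction turned at like density. AP-1 (TGANTCA) was in 6.88% of members and 6.72% of the others, but at like density in 6.18% and 7.10%. RUNX (TGTGGTT) was in 5.32% and 4.55%, but at like density in 4.76% and 4.94%. The motif of GATA factors, AGATAAG, was in 2.77% and 2.71%, and at like density in 2.60% and 2.92%. TEAD (GGAATGC) was in 1.96% and 2.15%, the nuclear receptor motif AGGTCA in 17.5% and 17.3%, and the E-box CACGTG in 3.69% and 3.42%, and at like density these were 1.90% and 2.07%, 17.1% and 17.0%, and 3.61% and 3.14%. A STAT5 match (TTCNNNGAA), added after the Mup and Stat5b members had been seen, was in 5.58% of members and 5.95% of the others, and at like density in 6.03% and 5.56%. None of the 3 Mup windows printed above held a match to STAT5, HNF4A, CEBP, FOXA, HNF1, AP-1 or CTCF as spelled here, which says only that these letters are not in those windows.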

How the data were processed

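Hepatocyte nuclei of 1 library per time point were profiled by scATAC-Seq. The authors made the deposited counts, whole numbers of transposase cut sites per peak and barcode, with Cell Ranger ATAC, which the submitters' processing notes name and for which the file headers give version 1.1.0. The build mm10 is from the same notes. Peak calling by the authors was done library by library, and the peak lists carry no score. Depth ranged from 15809769 to 136949314 counts per library, so a member with the median of 62 counts at 0 h would have 28.3, 11.6 and 7.16 at the depths of 48, 72 and 96 h.

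The members, gene lists and alternatives were chosen with earlier results of these data known. Peaks of the 4 libraries were merged where they touched or overlapped. Nuclei were barcodes with at least 1000 counts. The 0 h nuclei were clustered on binarised non-member peaks found in at least 1% of nuclei, by TF-IDF, truncated SVD with 30 components, 30 neighbours per nucleus and Leiden clustering (resolution 0.5) (scikit-learn 1.9.0, leidenalg 0.10.2). A cluster was hepatocyte-like when its hepatocyte marker level was above -1 on the log2 scale. No doublet caller was run, and an alternative dropped the deepest 5% of nuclei. A 2-fold call used counts scaled to each class's total, plus 1 count in the smaller class, with at least 20 counts in both together. Binomial and Poisson intervals were taken on counts divided by 2, as a fragment with both ends in a peak gives 2 counts (in members many have 1 end inside), and those over regions on the number of regions. They cover counting error only. Functions were tested on simulated data.

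Regions were named by a fixed rule: the 10 members with the most counts, the 5 longest, the 10 with the most counts at a protein-coding TSS, those highest in each small cluster, those in the fewest nuclei against expected, at most 3 per gene list, and those nearest to the limits of the rule. The nearest gene was the one with the nearest protein-coding TSS in GENCODE vM21, and sequence was read from GRCm38. Some members that this rule names are not reported here. No test was made, as each time point had 1 library.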

Additional observations from a re-analysis of the deposited data

How the results depend on the processing

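No paired analysis was possible because each time point had 1 library, and for the same reason no replicate could be left out. Of 80 alternatives, 30 kept the value within its 95% interval, or within 1.5 times for a count, and 50 did not. Those over nuclei or regions have narrow intervals, which small shifts pass.

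The number of members was 13150 when a later peak had to cover 50% of a 0 h peak and 104 with only 0 h peaks of at least the median count. Their share of counts was 0.473% without the 5% deepest nuclei, 0.478% without barcodes found in another library (an alternative added after the data had been seen, here and below) and 0.950% with binarised counts. The median number of nuclei was 40 and 25 under the first 2 of these. The ratio of observed to expected nuclei was 0.788 when each count was a fragment and 0.994 with fragments rounded up per value, also added later, where the ratio printed first for counts divided by 2 was 1.56. The share of the 20% deepest nuclei was 53.4% with all barcodes, 44.8% without the 5% deepest and 42.6% without barcodes found in another library. The shares of hepatocyte-like nuclei, cluster 4 and cluster 5 were 97.0%, 1.36% and 1.68% without those barcodes, and the first 2 were 98.6% and 0.535% with at least 3000 counts.

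The share near a TSS was 5.82% for protein-coding genes and 16.1% within 2000 bp. The share under the 5% limit, scaled by regions shared by all libraries, was 17.3% at 48 h and 65.6% at 96 h, and by counts per bp 18.6%, 17.8% and 99.4% at 48, 72 and 96 h. In the central 400 bp GC was 45.8%, and motif shares were higher, as the window is longer: HNF4A 1.28%, CEBP 19.2%, FOXA 7.14%, HNF1 1.33%, AP-1 12.9%, ETS 1.54%, GATA 5.64%, TEAD 4.48%, RUNX 9.89%, AGGTCA 29.8%, E-box 6.49% and CTCF 0.611%. Members with a listed TSS within 100 kb numbered 13 (pericentral), 16 (periportal), 29 (plasma proteins), 40 (hepatocyte transcription factors), 25 (clock), 53 (growth hormone), 31 (lipid), and for markers 29 (hepatocyte), 11 (endothelial), 9 (myeloid), 6 (stellate), 7 (cholangiocyte) and 14 (lymphocyte). By the share of peaks within 100 kb, the growth hormone list stood at 13.1% and the clock list at 7.14%. Unless a window or a count of nuclei sets the change, the cause was not tested. By density, the 4249 members of at least 200 bp had larger shares under the 5% limit. These were 36.9% at 48 h, 90.4% at 72 h and 100% at 96 h. Of the other 0 h peaks whose region had a peak in that library, 7.52%, 24.3% and 75.7% lay under it too. The part of depth in the lack of later peaks was not tested.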
